A study of Mus musculus with 6 samples.

Results

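Osteoblasts, the cells that build bone, also make the signals that control osteoclasts, the cells that resorb it. The 10 genes described here encode such signals, namely Tnfsf11 (RANKL), Tnfrsf11b (osteoprotegerin, OPG), Csf1, Il34, Cxcl12, Sema3a, Efnb2, Ephb4, Wnt5a and Wnt16. They were taken by name as the rows of the count table whose Ensembl ID carries that gene symbol in the GENCODE mouse release M21 annotation of the GRCm38 genome build. All 10 were found, each as 1 of 51912 gene IDs, and all 10 were among the 19017 genes with enough counts to be tested.

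The RNA came from primary osteoblasts of the calvaria (skull cap) of C57BL/6J pups aged 1 d that carry Mark3 flox/flox alleles, in which loxP sites let the Cre recombinase delete Mark3, a serine/threonine kinase gene. Cells that received GFP-adenovirus (3 libraries, called WT) were compared with cells that received CRE adenovirus (3 libraries, called Mark3-KO), in each case for 24 h. Floxed Mark3 was thus common to all 6 libraries, and the virus changed together with the genotype. Nothing in the labels tells if the 3 libraries of 1 group were separate cultures or animals. The p-values therefore reflect the spread among these libraries alone, which may be technical. Totals ran from 56925883 to 71445243 counts per library. Mark3 itself fell from 116 ± 2.78 to 48.0 ± 4.14 CPM (counts scaled to library size, mean ± SD, n = 3), which left 41.4% of the WT level (edgeR adjusted p 0.0153). It passed in every setting tried except without WT replicate 2, Mark3-KO replicate 2 or Mark3-KO replicate 3, and in a fit of 4 libraries, chosen after seeing the data, that leaves out WT replicate 1 and Mark3-KO replicate 3.

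RANKL on osteoblast-lineage cells binds its receptor RANK on osteoclast precursors and drives them to form osteoclasts, and OPG, secreted by the same cells, binds RANKL and blocks it. CSF1 and IL-34 both act through the receptor CSF1R, which the precursors need to survive and multiply. The other genes encode guidance and Wnt signals that attract, restrain or sensitise the precursors, and the ephrin-B2 and EphB4 pair that carries signals between cells in contact.

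The bases before the gene starts are shown so that the promoters of genes that measured apart between the groups can be compared. Of the 10 genes, 7 had an entry in the RefSeq table of promoters (GRCm38.p6), here the 250 bases before the start that RefSeq gives, and Tnfrsf11b, Il34 and Wnt5a had none. Windows are shown for Tnfsf11, the ligand that starts osteoclast formation, for Cxcl12 and Wnt16, which measured lower in Mark3-KO with and without a correction for GC content, and for Ephb4, the receptor with the highest transcript GC content of the 10. Each is read 5′ to 3′ on the gene's strand, at chr14:78308044-78308293 (minus strand) for Tnfsf11, chr6:117168285-117168534 (plus) for Cxcl12, chr6:22287977-22288226 (plus) for Wnt16 and chr5:137349859-137350108 (plus) for Ephb4. Capitals mark matches on either strand to the TATA box (TATAAA), the RUNX motif TGTGGT, the CREB motif TGACG, the AP-1 motif TGANTCA, the SP1 motif GGGCGG and the CCAAT box.
Tnfsf11 promoter: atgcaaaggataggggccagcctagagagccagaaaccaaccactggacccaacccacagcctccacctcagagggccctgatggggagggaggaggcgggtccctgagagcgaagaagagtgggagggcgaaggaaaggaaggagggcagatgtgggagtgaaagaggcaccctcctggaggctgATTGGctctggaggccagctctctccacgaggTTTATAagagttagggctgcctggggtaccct
Cxcl12 promoter: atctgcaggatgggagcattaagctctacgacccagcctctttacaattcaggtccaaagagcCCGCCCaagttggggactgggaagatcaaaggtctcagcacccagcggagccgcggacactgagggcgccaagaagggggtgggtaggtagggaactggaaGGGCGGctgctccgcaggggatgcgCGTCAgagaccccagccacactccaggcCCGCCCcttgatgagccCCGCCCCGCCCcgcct
Wnt16 promoter: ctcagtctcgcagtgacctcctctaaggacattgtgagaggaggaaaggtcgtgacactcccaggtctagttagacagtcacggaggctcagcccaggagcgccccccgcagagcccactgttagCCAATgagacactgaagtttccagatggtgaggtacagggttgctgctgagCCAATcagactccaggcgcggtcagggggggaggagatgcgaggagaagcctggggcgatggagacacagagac
Ephb4 promoter: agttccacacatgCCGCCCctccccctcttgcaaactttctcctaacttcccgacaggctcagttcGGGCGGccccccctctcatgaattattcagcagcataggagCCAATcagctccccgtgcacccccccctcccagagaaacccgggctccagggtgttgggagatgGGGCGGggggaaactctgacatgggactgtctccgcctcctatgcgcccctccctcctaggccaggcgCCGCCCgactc
The Tnfsf11 window held a TATA box match whose letters, on the opposite strand, begin 32 bases before the start, and a CCAAT match at 64 bases. The Cxcl12 window held 5 SP1 matches and a CREB match at 61 bases, and its SP1 matches at 16 and 11 bases share 1 base. The Wnt16 window held 2 CCAAT matches, at 125 and 74 bases, and none of the other motifs. The Ephb4 window held 4 SP1 matches and a CCAAT match at 143 bases. Over the 7 windows, SP1 and CCAAT letters were each in 4, TATA and CREB letters in 2, RUNX letters in 1 (Sema3a) and AP-1 letters in 0. The Sema3a window, chr5:13396534-13396783 (plus), lies before RefSeq's start but inside the longer GENCODE gene. Among 32851 windows of the same length in the table, 32.7% held SP1 letters, 33.8% CCAAT, 12.4% TATA, 17.8% CREB, 14% RUNX and 6.75% AP-1. These matches describe letters in a window and not sites of binding.

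In Mark3-KO osteoblasts RANKL, OPG and Sema3a measured higher than in WT, and Csf1, Il34, Cxcl12, Ephb4 and Wnt16 measured lower, with no overlap between the groups. Efnb2 and Wnt5a overlapped. These 8 of 10 genes without overlap compare with 53.3% of all tested genes. None of the differences passed the threshold: by the quasi-likelihood test of edgeR, adjusted after Benjamini-Hochberg, 0 of 10 genes had an adjusted p below 0.05, beside 0.216% of all tested genes. At an unadjusted p below 0.05 there were 8 of 10, against 45.7% of all genes. At an adjusted p below 0.1, 3 genes were higher (19.7% of all genes) and 5 lower (24% of all genes). With limma-voom 0 of 10 passed. With the DESeq2 Wald test 6 passed, Tnfsf11, Tnfrsf11b and Sema3a on the higher side and Il34, Ephb4 and Wnt16 on the lower. Of the 17895 genes to which DESeq2 gave an adjusted p, 38.6% passed. Without WT replicate 3 edgeR passed 5 of the 10 (Csf1, Il34, Sema3a, Ephb4 and Wnt16), and without Mark3-KO replicate 1 it passed 4 (Csf1, Il34, Sema3a and Ephb4), where 32.9% and 32.1% of all genes tested in those fits passed. The median log2 fold change (Mark3-KO over WT) of the 10 genes was -0.16, and that of all tested genes was 0.02.

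**Figure D1:**
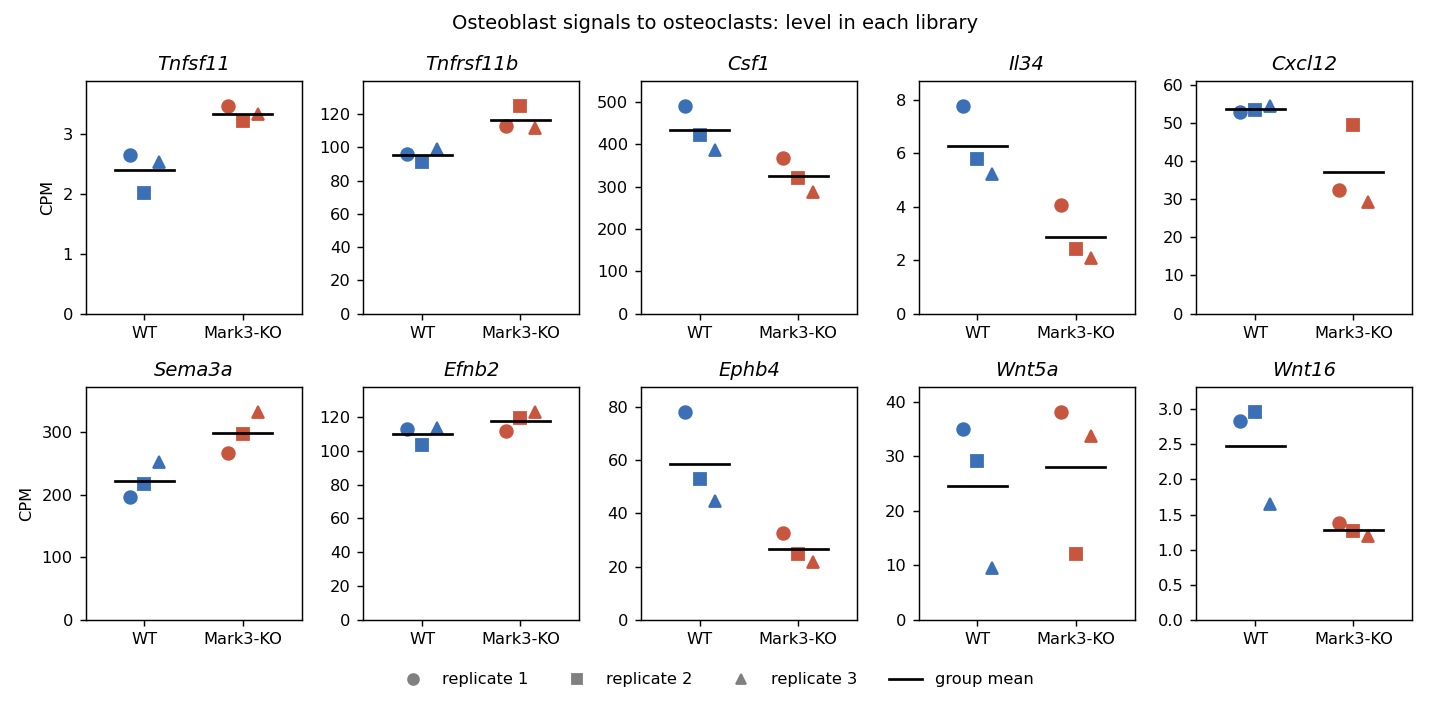
Level of each of the 10 genes in CPM (y axis, from 0) in the WT and Mark3-KO libraries (x axis), with marker shape for the replicate and a line for the mean of 3 libraries. Every Mark3-KO library lies above the WT libraries for Tnfsf11, Tnfrsf11b and Sema3a and below them for Csf1, Il34, Cxcl12, Ephb4 and Wnt16.

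Fold changes varied with the GC content of the transcripts. Over all tested genes, split by GC content into 10 bins of equal size, the median log2 fold change went from 0.63 in the lowest bin to -1.33 in the highest. The genes described here spread over that range. Sema3a (40.6% GC) was in the lowest bin, Tnfrsf11b in the second and Tnfsf11 in the third, where the medians were 0.63, 0.47 and 0.36. Csf1 was in the eighth bin, Il34 in the ninth and Ephb4 (58.1% GC) in the highest, where the medians were -0.52, -0.86 and -1.33. Of the 10 genes, 7 had the sign of their bin's median, and Cxcl12, Efnb2 and Wnt16 had the other. A correction was therefore fitted in each library, as a smooth curve against GC content of how far each gene lay from its own mean on the log2 scale. With it 0 of 10 genes passed in edgeR's test, beside 0.405% of all tested genes, and 5 had an unadjusted p below 0.05 (25.1% of all genes). Corrected levels did not overlap for 5 of the 10 genes (31.9% of all tested genes), with Csf1 and Efnb2 higher and Cxcl12, Sema3a and Wnt16 lower. Cxcl12 and Wnt16 were thus the genes of the 10 that lay on the same side without overlap under both treatments of the data. The share of all tested genes that did so was not worked out, so this sets neither gene apart from other genes. The GC-linked shift ran with the groups, from WT replicate 1 to Mark3-KO replicate 3 along a first principal component with 65.5% of the variance. What the shift comes from was not tested.

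**Figure D2:**
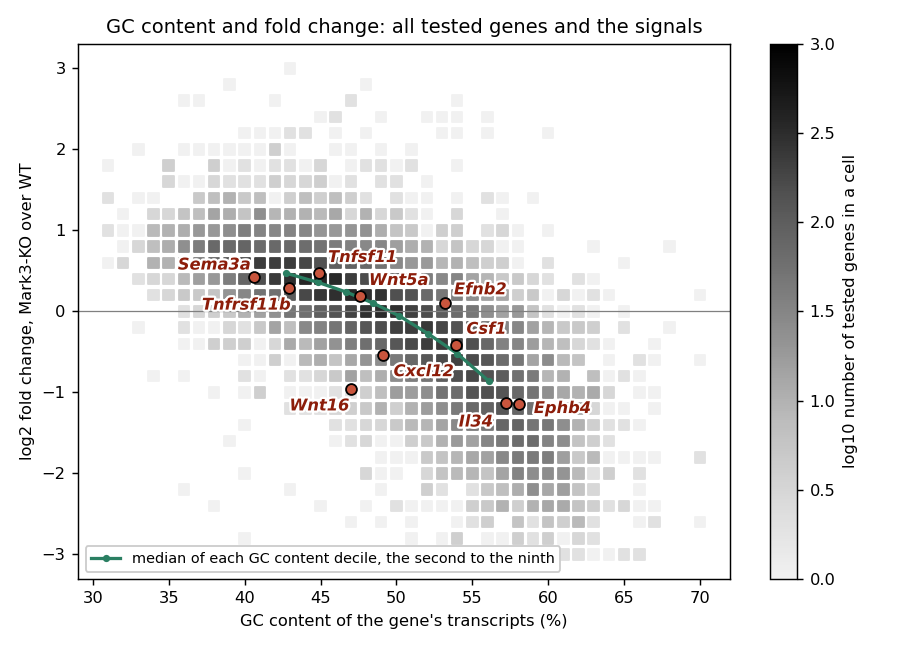
Log2 fold change of Mark3-KO over WT (y axis) against the GC content of a gene's transcripts in percent (x axis), where grey cells count the tested genes on a log10 scale, the line joins medians of the second to the ninth GC content bin, and red points are the 10 genes. Genes beyond the axis limits are not drawn. Tnfrsf11b, Tnfsf11 and Csf1 lie near the line of medians, Wnt16 and Cxcl12 lie below it and Efnb2 lies above it, while Sema3a, Il34 and Ephb4 lie beyond its ends.

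RANKL transcripts (Tnfsf11, chromosome 14, 78277445 to 78308043, minus strand) were rare. The WT libraries held 2.64, 2.02 and 2.52 CPM, and the Mark3-KO libraries 3.46, 3.21 and 3.32 CPM. All Mark3-KO values lay above all WT values, at means of 3.33 ± 0.13 and 2.39 ± 0.33 CPM (SD, n = 3). The log2 fold change was 0.48 (SE 0.17, 95% interval 0.07 to 0.89, edgeR adjusted p 0.0781). Counts were low, between 111 and 255 per library. The exact Poisson 95% interval of the highest WT library, 2.24 to 3.09 CPM, overlaps that of the lowest Mark3-KO library, 2.77 to 3.69 CPM. Such intervals cover counting error alone. After the GC correction the value was 0.12 on the log2 scale (edgeR adjusted p 0.702), and the groups overlapped.

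OPG transcripts (Tnfrsf11b, chromosome 15, 54250619 to 54278484, minus strand), which encode the secreted decoy receptor of RANKL, measured 95.7, 91.1 and 98.9 CPM in WT and 113, 125 and 111 CPM in Mark3-KO. Each Mark3-KO library was above each WT library. The means were 95.2 ± 3.91 and 116 ± 7.41 CPM (SD, n = 3), a log2 fold change of 0.29 (SE 0.09, 95% interval 0.07 to 0.50, edgeR adjusted p 0.0581). The GC correction turned the sign, to -0.17 (edgeR adjusted p 0.389), and the groups overlapped.

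RANKL and its decoy both measured higher in Mark3-KO, and library size cancels in their ratio. The ratio of Tnfsf11 to Tnfrsf11b counts was 0.0276, 0.0221 and 0.0255 in the WT libraries, against 0.0307, 0.0257 and 0.0298 in those of Mark3-KO. The groups overlapped, since Mark3-KO replicate 2 lay below WT replicate 1. On the log2 scale the means were -5.32 ± 0.16 and -5.12 ± 0.14 (SD, n = 3), a difference of 0.20. The difference was 0.11 without WT replicate 2 and 0.27 when Mark3-KO replicate 2 was left out. After correction for GC content the log2 ratios were -5.26, -5.55 and -5.31 in WT, against -5.02, -5.22 and -4.95 in Mark3-KO, a difference of 0.31. The groups then lay narrowly apart, with WT replicate 1 at -5.26 and Mark3-KO replicate 2 at -5.22. The Tnfsf11 counting intervals of these libraries overlap, as given above. Per kb of exon the ratio was 0.0316 in WT and 0.0362 in Mark3-KO, so OPG transcripts outnumbered those of RANKL in both groups.

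**Figure D3:**
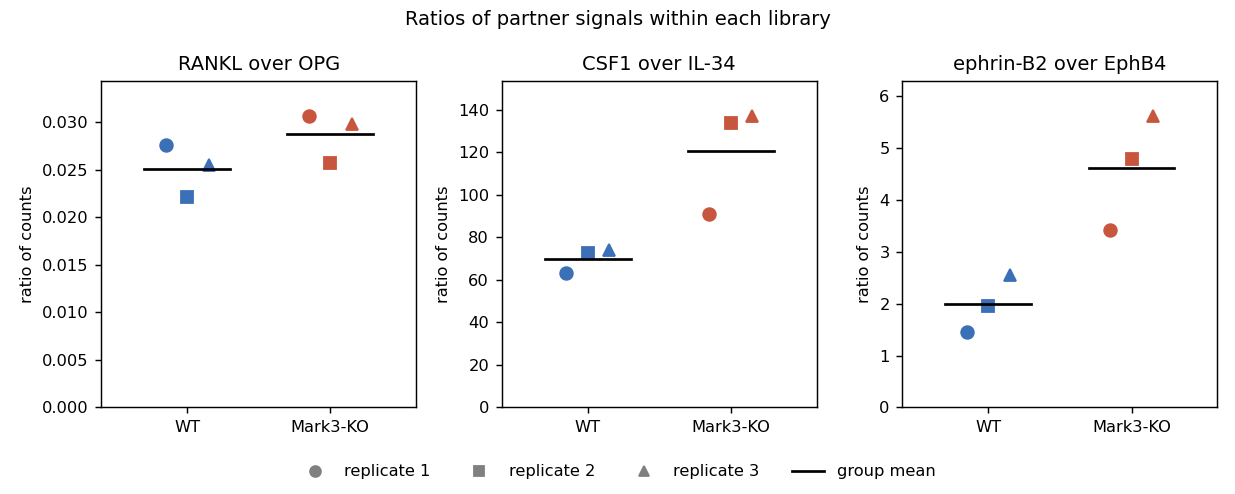
Ratio of counts within each library (y axes, from 0) for RANKL over OPG, CSF1 over IL-34 and ephrin-B2 over EphB4 in WT and Mark3-KO (x axes), with marker shape for the replicate and a line for the mean of 3 libraries. The RANKL over OPG ratio of the groups overlaps, from 0.0221 to 0.0276 in WT and from 0.0257 to 0.0307 in Mark3-KO, and the other ratios lie higher in every Mark3-KO library.

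Csf1 (chromosome 3, 107741048 to 107760469, minus strand) encodes the growth factor of osteoclast precursors. It measured 491, 422 and 387 CPM in WT and 368, 321 and 288 CPM in Mark3-KO. All Mark3-KO libraries were lower, and the nearest of them was 368 against 387 CPM. The means were 433 ± 53.0 and 326 ± 40.5 CPM (SD, n = 3), a log2 fold change of -0.41 (SE 0.14, 95% interval -0.73 to -0.09, edgeR adjusted p 0.0650). The GC correction turned the sign, to 0.14 (edgeR adjusted p 0.172), and the corrected Mark3-KO levels all lay above the WT levels.

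Il34 (chromosome 8, 110741829 to 110805924, minus strand) encodes the alternative ligand of CSF1R. It measured 7.77, 5.79 and 5.22 CPM in WT and 4.06, 2.40 and 2.10 CPM in Mark3-KO. The groups were apart, with Mark3-KO replicate 1 nearest to WT. The means were 6.26 ± 1.34 and 2.85 ± 1.05 CPM (SD, n = 3), a log2 fold change of -1.13 (SE 0.30, 95% interval -1.85 to -0.42, edgeR adjusted p 0.0506). The GC-corrected value was -0.14 (edgeR adjusted p 0.605), with overlap. Il34 shares 22 and 75 exon bases with the predicted genes Gm15894 and Gm15895, which held 65 and 27 counts over the 6 libraries.

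Within CSF1R ligands, the balance lay further towards Csf1 in Mark3-KO. The ratio of Csf1 to Il34 counts was 63.2, 72.8 and 74.1 in the WT libraries, against 90.8, 134 and 137 in those of Mark3-KO. Every Mark3-KO library was higher, by 0.76 on the log2 scale between the means. Corrected for GC content the difference was 0.27 and the groups overlapped.

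Cxcl12 (chromosome 6, 117168535 to 117181367, plus strand), the chemokine that draws precursors to bone through CXCR4, measured 52.8, 53.3 and 54.4 CPM in WT and 32.3, 49.3 and 29.4 CPM in Mark3-KO. The WT libraries were close together, and Mark3-KO replicate 2 lay nearer to them than to its own group. The means were 53.5 ± 0.83 and 37.0 ± 10.8 CPM (SD, n = 3), a log2 fold change of -0.53 (SE 0.20, 95% interval -1.01 to -0.05, edgeR adjusted p 0.0875). It was -0.80 when Mark3-KO replicate 2 was left out. Corrected for GC content it was -0.55 (edgeR adjusted p 0.153), and the groups stayed apart.

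Sema3a (chromosome 5, 13125414 to 13602565, plus strand) encodes a semaphorin, a secreted guidance protein that restrains osteoclast formation. It measured 196, 216 and 252 CPM in WT and 266, 296 and 332 CPM in Mark3-KO. Every Mark3-KO library was higher, and the nearest libraries of the groups were WT replicate 3 and Mark3-KO replicate 1. The means were 222 ± 28.7 and 298 ± 32.8 CPM (SD, n = 3), a log2 fold change of 0.43 (SE 0.13, 95% interval 0.11 to 0.75, edgeR adjusted p 0.0583). The GC correction turned the sign, to -0.14 (edgeR adjusted p 0.144), and the corrected Mark3-KO levels were all lower.

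Efnb2 (chromosome 8, 8617434 to 8661242, minus strand) encodes ephrin-B2, a membrane ligand best known on osteoclasts and also made by osteoblasts. It measured 113, 104 and 114 CPM in WT and 112, 119 and 123 CPM in Mark3-KO. The groups overlapped, at means of 110 ± 5.58 and 118 ± 5.82 CPM (SD, n = 3). The log2 fold change was 0.10 (SE 0.09, 95% interval -0.11 to 0.31, edgeR adjusted p 0.407). In its GC content bin the median gene stood at -0.52, and the corrected value of Efnb2 was 0.54 (SE 0.14, 95% interval 0.19 to 0.88, edgeR adjusted p 0.110), with the groups apart. Together with the replicate number as a block, the GC correction gave 0.53 and an edgeR adjusted p of 0.0431.

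Ephb4 (chromosome 5, 137350109 to 137378669, plus strand) encodes the receptor through which ephrin-B2 signals into osteoblasts. It measured 78.0, 52.9 and 44.5 CPM in WT and 32.7, 24.9 and 21.9 CPM in Mark3-KO. All Mark3-KO libraries were lower, and WT replicate 1 was the highest of its group. The means were 58.5 ± 17.4 and 26.5 ± 5.58 CPM (SD, n = 3), a log2 fold change of -1.14 (SE 0.25, 95% interval -1.74 to -0.55, edgeR adjusted p 0.0506). With the GC correction the value was 0.03 (edgeR adjusted p 0.890), and the groups overlapped. Ephb4 shares 33 exon bases with Zan.

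The ratio of Efnb2 to Ephb4 counts was 1.45, 1.96 and 2.55 in the WT libraries, against 3.41, 4.80 and 5.62 in those of Mark3-KO. Every Mark3-KO library had a higher ratio of ligand to receptor, by 1.22 on the log2 scale between the means. Of the 3 ratios it was the one without overlap both before and after the GC correction, with corrected log2 ratios of 1.20, 1.36 and 1.38 in WT, against 1.62, 1.85 and 1.97 in Mark3-KO, a difference of 0.50.

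Wnt5a (chromosome 14, 28504750 to 28527448, plus strand), a Wnt that sensitises osteoclast precursors to RANKL through the receptor ROR2, was uneven within both groups. It measured 34.9, 29.2 and 9.52 CPM in WT and 38.1, 12.2 and 33.8 CPM in Mark3-KO. WT replicate 3 and Mark3-KO replicate 2 were low, and the other 4 libraries lay between 29.2 and 38.1 CPM. The means were 24.5 ± 13.3 and 28.0 ± 13.9 CPM (SD, n = 3), a log2 fold change of 0.19 (SE 0.57, 95% interval -1.17 to 1.56, edgeR adjusted p 0.809). The sign turned without WT replicate 3 (-0.21) and without Mark3-KO replicate 1 (-0.10). Wnt5a shares 358 exon bases (4.58% of its exons) with the predicted gene Gm2670, whose counts of 42, 29 and 52 in WT, against 20, 31 and 22 in Mark3-KO, were far below those of Wnt5a. The library kit does not mark strand, so reads of a gene and of an overlapping gene on the other strand cannot be told apart.

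Wnt16 (chromosome 6, 22288227 to 22298522, plus strand), a Wnt from osteoblasts that restrains osteoclast formation, measured 2.83, 2.96 and 1.65 CPM in WT and 1.38, 1.26 and 1.19 CPM in Mark3-KO. All Mark3-KO libraries were lower, and WT replicate 3 lay close to them. The means were 2.48 ± 0.72 and 1.28 ± 0.10 CPM (SD, n = 3), a log2 fold change of -0.96 (SE 0.26, 95% interval -1.58 to -0.33, edgeR adjusted p 0.0512). Counts ran from 73 to 165 per library. The exact Poisson 95% intervals of WT replicate 3 (1.36 to 1.99 CPM) and Mark3-KO replicate 1 (1.13 to 1.68 CPM) overlap. With the GC correction the value was -1.17 (SE 0.28, edgeR adjusted p 0.104), and the groups stayed apart. Without WT replicate 3 it was -1.19 and passed in edgeR's test.

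**Figure D4:**
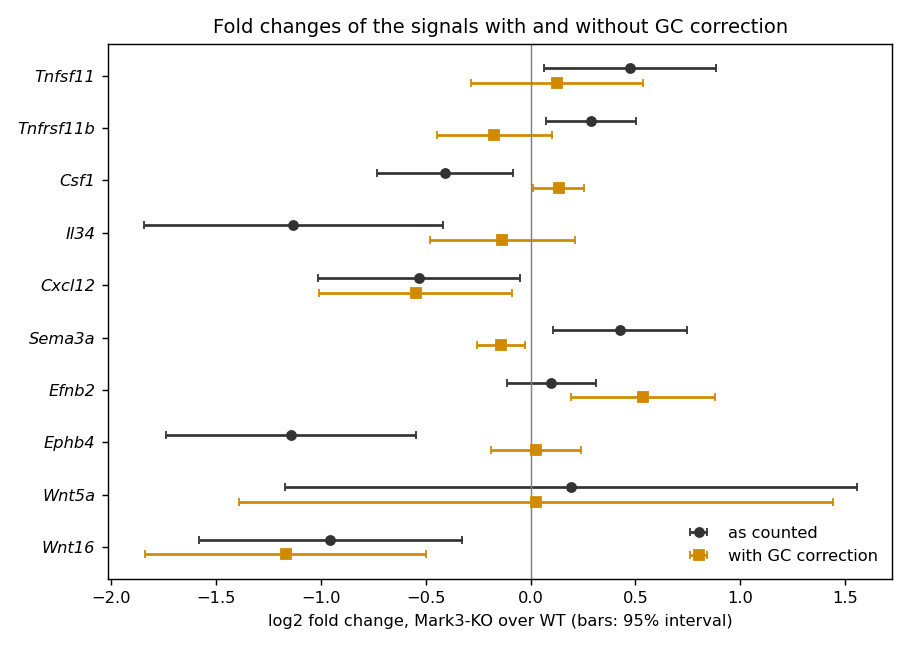
Log2 fold change of Mark3-KO over WT (x axis) for each of the 10 genes (y axis), as counted and with the GC correction, where bars are 95% intervals from edgeR's fit of 3 libraries per group. The intervals of Cxcl12 (-0.53 and -0.55) and Wnt16 (-0.96 and -1.17) lie below 0 both ways, Efnb2 moves from 0.10 to 0.54, and Tnfrsf11b, Csf1, Sema3a and Ephb4 change sign.

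Levels between genes were compared as CPM per kb of exon (mean ± SD, n = 3). In WT the highest was Csf1 at 82.0 ± 10.0, followed by Tnfrsf11b at 33.8 ± 1.39. Efnb2 (16.1 ± 0.81), Sema3a (16.0 ± 2.07) and Ephb4 (12.6 ± 3.76) came next, and the ranges of these neighbours overlapped. Cxcl12 stood at 6.54 ± 0.10. Il34 (3.20 ± 0.68) and Wnt5a (3.14 ± 1.70) overlapped, and Tnfsf11 (1.07 ± 0.15) and Wnt16 (0.57 ± 0.16) were lowest. The order in Mark3-KO began with Csf1 at 61.7 ± 7.68, Tnfrsf11b at 41.3 ± 2.63, Sema3a at 21.5 ± 2.37 and Efnb2 at 17.2 ± 0.85. Ephb4 (5.71 ± 1.20), Cxcl12 (4.53 ± 1.32) and Wnt5a (3.58 ± 1.78) overlapped with their neighbours, as did Tnfsf11 (1.49 ± 0.06) and Il34 (1.46 ± 0.54). Wnt16 was last at 0.29 ± 0.02. Transcripts of Csf1 and OPG thus led in both groups, and RANKL was among the lowest.

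The receptors and co-receptors for these signals were also measured, since osteoblasts carry some of them. Of 18 tested, 0 passed in edgeR's test, where 10 had an unadjusted p below 0.05 (45.7% of all genes). The DESeq2 Wald test passed 7 (38.6% of the genes it gave an adjusted p). Their median log2 fold change was 0.00 (0.06 with the GC correction), beside 0.02 for all tested genes (0.01 corrected). At an adjusted p below 0.1, 3 were higher and 7 lower, beside 19.7% and 24% of all genes. Sdc1, a heparan sulphate co-receptor, measured 140 ± 32.9 and 75.0 ± 12.4 CPM (log2 fold change -0.91, edgeR adjusted p 0.0506), and turned to 0.10 with the GC correction. Plxna1, a plexin that transmits semaphorin signals, stood at -1.26 (-0.21 corrected) and shares 970 exon bases (10.7% of its exons) with the gene Gm26811 on the other strand, and the Wnt receptor gene Fzd2 at -1.10 (-0.07 corrected). Lgr4, a receptor that can also bind RANKL, measured 73.0 ± 7.93 and 102 ± 11.2 CPM (0.48, and 0.22 corrected). Ror2 and Fzd5 are named after their values were seen. Ror2 measured 33.8 ± 16.3 and 7.51 ± 5.50 CPM (-2.17, edgeR adjusted p 0.0515, and -1.08 corrected, adjusted p 0.149). Its groups lay apart both ways. Fzd5 went from 0.15 to 1.00 corrected. Corrected levels of 6 receptors lay apart on the higher side and 3 on the lower, beside 31.9% of all genes either way.

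The 7 other ephrin and Eph receptor genes tested, all of the B class except Epha4, had negative log2 fold changes as counted. Their median was -1.06 (-0.31 with the GC correction). Epha4 stood at -0.06 (-0.22 corrected) and overlapped between the groups as counted. In edgeR's test 0 passed and 5 had an unadjusted p below 0.05, all lower (24.8% of all genes were lower at that p). The DESeq2 Wald test passed 4 (38.6% of the genes it gave an adjusted p). Ephb3, an EphB receptor gene, measured 36.6 ± 12.5 and 10.7 ± 3.78 CPM (-1.77, edgeR adjusted p 0.0506), and Ephb2 119 ± 27.9 and 58.5 ± 8.64 CPM (-1.02). The ligand gene Efnb1 stood at -1.43 and Ephb6, a receptor without kinase activity, at -1.69. With the GC correction these were -0.69 for Ephb3, -0.14 for Ephb2, -0.31 for Efnb1 and -0.39 for Ephb6. The ligand gene Efnb3, named after its values were seen, turned from -0.40 to 0.64 corrected, and Ephb4 itself stood at 0.03 corrected.

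Among receptors and transcription factors known to act upstream of RANKL and OPG, 1 of 23 passed in edgeR's test, beside 0.216% of all tested genes. Lifr, which encodes a receptor chain for the cytokine LIF, measured 35.6, 32.0 and 33.1 CPM in WT and 58.1, 67.3 and 71.5 CPM in Mark3-KO. It rose by 0.97 on the log2 scale (SE 0.12, edgeR adjusted p 0.0459), and by 0.75 with the GC correction (edgeR adjusted p 0.0445). It did not pass with limma-voom, without WT replicate 1, WT replicate 2, Mark3-KO replicate 2 or Mark3-KO replicate 3, or in the fit of 4 libraries. At an adjusted p below 0.1, 5 of the 23 were higher and 7 lower (19.7% and 24% of all genes), and the median was -0.26 (0.07 corrected). With the DESeq2 Wald test 5 higher and 7 lower genes of the 23 passed (38.6% of the genes it gave an adjusted p, either way). Stat3, the transcription factor through which cytokines of the interleukin 6 family act, measured 176 ± 14.2 and 104 ± 7.98 CPM (-0.75, edgeR adjusted p 0.0506, and -0.41 corrected, adjusted p 0.0561). The Wnt co-receptor gene Lrp5 stood at -1.70 (-0.73 corrected), and the TNF receptor gene Tnfrsf1a at -0.90 (0.00 corrected).

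Of 9 genes that shed or sort membrane-bound signals, 0 passed in edgeR's test and 4 had an unadjusted p below 0.05 (45.7% of all genes). The DESeq2 Wald test passed 3 (38.6% of the genes it gave an adjusted p). Their median was -0.06 (0.05 corrected). Rab27b, a small GTPase of secretory vesicles, measured 7.02 ± 0.57 and 12.7 ± 0.90 CPM (0.86, edgeR adjusted p 0.0506, and 0.27 corrected). Mmp14, a membrane protease that can shed RANKL, measured 594 ± 76.1 and 369 ± 48.4 CPM (-0.69), and turned to 0.31 corrected. The protease gene Adam10 stood at 0.52 (0.12 corrected), and Vps33a, which takes part in sorting RANKL to lysosomes, at -0.25 (-0.09 corrected).

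Of 23 other osteoblast products that act on osteoclasts or their precursors, 21 were tested and Osm and Fasl had too few counts. In edgeR's test 0 passed, and 4 higher and 8 lower genes had an unadjusted p below 0.05, beside 20.8% and 24.8% of all genes. The DESeq2 Wald test passed 12 (38.6% of the genes it gave an adjusted p). The median was -0.17 (0.01 corrected). Slit3, a secreted guidance protein gene, measured 165 ± 34.1 and 77.3 ± 13.9 CPM (-1.09, edgeR adjusted p 0.0506, and -0.36 corrected, adjusted p 0.0528). Gas6, a ligand of TAM receptors, stood at -1.18 (-0.23 corrected) and the semaphorin gene Sema7a at -0.96 (0.22 corrected). Ccl7, a chemokine gene, measured 24.7 ± 1.39 and 33.2 ± 0.83 CPM (0.43), and stood at -0.02 corrected.

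**Figure D5:**
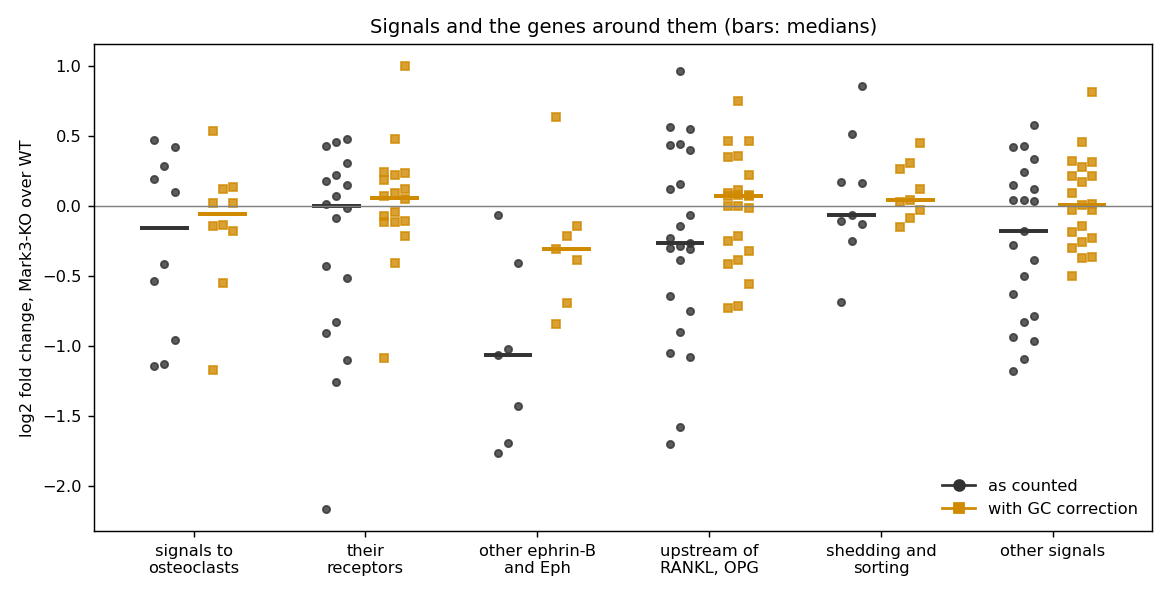
Log2 fold change of Mark3-KO over WT (y axis) for the tested genes of 6 lists (x axis), as counted and with the GC correction, where each point is a gene and bars are medians. The corrected medians lie between -0.06 and 0.07 for all lists but the other ephrin-B and Eph genes, which stand at -0.31.

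The cultures carried osteoblast markers in all libraries. All 10 were tested, with a summed level of 18696 to 39117 CPM in WT and 13183 to 14983 CPM in Mark3-KO, mostly from the collagen genes Col1a1 and Col1a2. At an edgeR adjusted p below 0.1, 6 of the 10 were lower and 1 higher, beside 24% and 19.7% of all tested genes. Col1a1, the main collagen chain of bone, measured 13907 ± 7188 and 4167 ± 889 CPM. The osteocalcin genes Bglap and Bglap2 measured 0.70 ± 0.31 and 1.30 ± 0.31 CPM in WT, against 0.21 ± 0.07 and 0.42 ± 0.19 CPM in Mark3-KO. Further markers are named here after their values were seen. Spp1 was the higher one, at 1178 ± 90.7 and 1489 ± 56.9 CPM (0.34, edgeR adjusted p 0.0526, and 0.01 corrected). Runx2, Sp7 and Ibsp overlapped between the groups as counted. With the GC correction Sp7 and Alpl went from -0.20 and -0.62 to 0.56 and 0.33. Col1a1, Col1a2, Bglap, Bglap2 and Ibsp stood at -0.54, -0.96, -0.82, -0.77 and -0.47 corrected. Corrected levels of 5 markers lay apart on the lower side and 1 on the higher, beside 31.9% of all genes either way. The corrected median of the 10 was -0.36. In bulk RNA, fewer cells of a type and less RNA per cell cannot be told apart. The 14 macrophage and osteoclast markers, 11 of them tested, summed to 253 to 280 CPM in WT and 258 to 273 CPM in Mark3-KO, mostly from Ctsk at 182 ± 16.1 and 184 ± 4.49 CPM. Csf1r, the receptor of Csf1 and Il34 and a marker of these cells, measured 12.0 ± 1.49 and 8.40 ± 1.35 CPM (-0.51, edgeR adjusted p 0.0679), stood at 0.07 with the GC correction, and shares 873 exon bases (15.1% of its exons) with Hmgxb3 on the other strand. The leukocyte gene Ptprc went the other way, at 2.56 ± 0.50 and 4.07 ± 0.31 CPM (0.67, edgeR adjusted p 0.0541, and 0.08 corrected). So did the macrophage gene Adgre1, at 8.49 ± 0.71 and 12.2 ± 1.04 CPM (0.53, edgeR adjusted p 0.0506, and 0.38 corrected). Of the 11 tested markers, 5 had a log2 fold change above 0 and 6 below. Among the lower ones, Acp5 stood at -1.04 (edgeR adjusted p 0.116, and -0.36 corrected), with overlap between the groups. Tyrobp, Mmp9 and Cd68 stood at -0.66, -0.55 and -0.37 (-0.07, 0.04 and 0.11 corrected). The fusion genes Dcstamp and Ocstamp were near 0 CPM. So was Calcr, and Acp5 measured 1.67 ± 0.30 and 0.81 ± 0.53 CPM. The sums of the macrophage and osteoclast markers thus mostly follow Ctsk and say little of the others. Endothelial markers (5 of 7 tested) summed to 4.48 to 4.58 CPM in WT and 4.47 to 4.71 CPM in Mark3-KO. Among them Pecam1, at 0.19 ± 0.02 and 0.46 ± 0.08 CPM, was low but apart between the groups (1.29, edgeR adjusted p 0.0506, and 1.33 corrected), and passed with the DESeq2 Wald test. Its counts ran from 11 to 39 per library. The other tested endothelial markers overlapped, with Cdh5 at -0.29, Vwf at -0.40, Tek at -0.07 and Kdr at 0.16. T and B cell markers (1 of 6 tested) summed to 0.27 to 0.45 CPM in WT and 0.17 to 0.42 CPM in Mark3-KO, with Cd3e at 0 counts in every library. Osteocyte markers (3 of 6 tested) summed to 104 to 118 CPM in WT and 117 to 134 CPM in Mark3-KO, almost all from Pdpn, with Sost at 0 counts. Marrow stromal and adipocyte markers (4 of 6 tested) summed to 84.2 to 100 CPM in WT and 119 to 151 CPM in Mark3-KO. Most came from Lepr at 72.6 ± 8.38 and 115 ± 15.6 CPM (0.67, edgeR adjusted p 0.0506, and 0.27 corrected). At an edgeR adjusted p below 0.1, 2 of the 4 were higher and 0 lower, beside 19.7% and 24% of all tested genes. Kitl stood at 0.47 (-0.05 corrected), Pparg at 0.13 (-0.12 corrected) and Cebpa at -0.13 (1.28 corrected). The part of the shifts in osteoblast, stromal and single macrophage and endothelial markers in the results for Tnfsf11, Cxcl12 and the other signals was not tested.

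The genes whose 6 values ran closest to Tnfsf11 were Tmem126a, Pole4 and C3ar1, among 8955 protein-coding genes with a mean of at least 10 CPM, by the root mean square distance of centred log2 CPM over 6 libraries. Their distances were 0.080, 0.081 and 0.083. For Tnfrsf11b they were Nup88, Cep128 and Rrm2, at distances of 0.029, 0.030 and 0.032. On GC-corrected levels the nearest were Chmp4b, C3ar1 and 4930503L19Rik for Tnfsf11 (0.056, 0.061 and 0.067) and Mettl13, Pask and Sf3a2 for Tnfrsf11b (0.034, 0.040 and 0.040). C3ar1 was thus the one gene near on both scales.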

How the data were processed

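The authors deposited whole-number counts per gene for 6 libraries, in a table with 51912 Ensembl IDs. HISAT2 2.0.5, StringTie, FastQC, DESeq2 and the build GRCm38 are named in the submitters' processing notes. Their order, settings, annotation release and treatment of shared reads are not given in the sources used here. Libraries were made with a TruSeq RNA version 2 kit, per the labels' protocols. GENCODE M21 matched 51719 IDs.

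Genes kept by filterByExpr (19017) were tested with edgeR 4.0.16 under R 4.3.3, with TMM scaling, a quasi-likelihood test and Benjamini-Hochberg adjustment over all tested genes at 0.05. Levels are CPM on TMM-scaled sizes. SE was taken as the log2 fold change divided by the root of the F statistic. The GC correction entered, as offsets, a natural spline (6 degrees of freedom) of each library's log2 ratio to the gene mean on transcript GC content. The log2 ratios and the ratio per kb had 0.5 added to each count, and the ratios of counts had nothing added. The procedure was tested on simulated data with known fold changes, the same scatter for all genes and no GC-linked shift. That test could not show how the calls or the GC correction behave under such a shift.

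The 10 genes, the 11 other lists (80 genes of pathways besides cell markers), the tests and the rule for named genes were chosen with earlier results of these data known. The rule took all 10 genes and Mark3, in each pathway list the genes past the threshold and up to 4 with the smallest p, and the 3 nearest profiles. Alternatives were other scalings, DESeq2 1.42.0, limma-voom (limma 3.58.1), other filters, the replicate block, the GC correction, an adjusted p of 0.1 and each library left out. A fit of 4 libraries was added after seeing the data. The level of 1 cell marker is not reported here.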

Additional observations from a re-analysis of the deposited data

How the results depend on the processing

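Of the 10 genes, 0 passed in edgeR's test (8 at an unadjusted p below 0.05). The count was 4 with library size alone, 6 with the DESeq2 Wald test, 6 with a filter of 1 CPM, 6 with the replicate block, 1 (Efnb2) with the GC correction and the block, 8 at an adjusted p of 0.1 and 0 to 5 with a library left out. For all tested genes the count was 41, and 4510, 6915, 5266, 8487, 1003, 8317 and 0 to 6460 under the same settings. It was 27 with limma-voom, 77 with the GC correction and 0 with 4 libraries, where 3258 had an unadjusted p below 0.05. These counts are of 19017 genes, except where the genes tested changed. The filter of 1 CPM left 14086, fits without a library 19515 to 19718, and the fit of 4 libraries 19173. DESeq2 gave an adjusted p to 17895. The lowest count with a library left out, 0, came without WT replicate 2, where 5929 had an unadjusted p below 0.05. With library size alone 51.4% of calls were lower (78% with TMM), and the median of all genes went from 0.02 to 0.13 on the log2 scale.

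Tnfsf11 passed with the DESeq2 Wald test (0.47), a filter of 1 CPM (0.50) and an adjusted p of 0.1 (0.48). Tnfrsf11b passed with library size alone (0.40), the DESeq2 Wald test (0.29), a filter of 1 CPM (0.32), the replicate block (0.29) and an adjusted p of 0.1 (0.29). The sign turned with the GC correction, and with it and the block, for Tnfrsf11b (-0.17 and -0.18), Csf1 (0.14 and 0.14), Sema3a (-0.14 and -0.14), Ephb4 (0.026 and 0.030), Ccl7 (-0.024 and -0.029), Mmp14 (0.31 and 0.32), Sdc1 (0.10 and 0.10), Sema7a (0.22 and 0.22) and Tnfrsf1a (0.0020 and 0.0035). Wnt5a ran from -0.21 to 0.54 with a library left out. The difference in log2 RANKL to OPG ratio kept its sign under all 10 alternatives, from 0.11 to 0.31. The causes of these shifts were not tested, beyond what each setting changes.

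The replicate numbers were not taken to pair the libraries, since like-numbered ones did not all correlate above 0.1, and whether they share a source is not given in the labels. Deviations from the group mean correlated at 0.33, -0.03 and 0.29 for like numbers and from -0.35 to 0.09 for unlike ones, so replicates 1 and 3 correlated above every unlike pair and replicate 2 did not. The block moved the count of the 10 genes from 0 to 6 (Tnfrsf11b, Csf1, Il34, Sema3a, Ephb4 and Wnt16). Among all 19017 tested genes it moved the count from 41 to 8487. A fit without 1 library leaves 2 in its group and pools the spread over genes and groups. Depth limits Tnfsf11 and Wnt16, whose counts carry counting intervals that overlap between the nearest libraries of the groups.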
